A study of Mus musculus with 9 samples.

Results

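Imprinted growth regulators were followed as a set of 10 listed genes: Peg3, H19, Igf2, Dlk1, Cdkn1c, Mest, Plagl1, Grb10, Meg3 and Ndn. Its members are all probe sets of the Affymetrix MG-430 2.0 mouse array whose only gene symbol is one of these names. The rule found 36 probe sets of 9 genes, out of 45101 probe sets and 18193 genes in all. No probe set carried H19 as its only symbol, so H19 has no value among the members. RNA came from 3 mouse epithelial lines of mixed C57/BL6 and sv129 background, with 3 arrays per line. The wild-type line (Gprc5a intact) and the knockout line (Gprc5a deleted) were each grown from the trachea of a mouse 3 weeks old, and the labels call both normal and non-tumorigenic. The sample titles, by contrast, name both as normal lung epithelial cells. The tumour line (MDA-F471) came from an adenocarcinoma of the lung in a female Gprc5a knockout mouse, 16 months after intraperitoneal NNK, a nitrosamine carcinogen of tobacco. The tumour line thus shares the Gprc5a deletion with the knockout line and differs from it in stated tissue of origin, age, carcinogen and malignancy. The study asked which genes accompany the loss of Gprc5a and the growth of a tumour. Each genotype or disease state is 1 line, so line and genotype cannot be told apart. The labels do not say that replicates were separate cultures, so every p-value covers just the spread among the arrays at hand.

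An imprinted gene is transcribed mainly from the copy inherited from 1 parent, because DNA methylation at a control region marks the copies differently in egg and sperm. Many imprinted genes act on prenatal growth. Those expressed from the father's copy often promote growth, those from the mother's copy often restrain it, and many are highly expressed in the fetus and fall to low levels after birth. Peg3, Igf2, Dlk1, Mest, Plagl1 and Ndn are expressed from the father's copy. H19, Cdkn1c, Meg3 and, in most tissues outside the brain, Grb10 are expressed from the mother's copy. An array signal does not tell the parental copies apart.

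All signals are on the log2 scale, and a difference of 1 is 2-fold. A log2 signal of 5.15 served as a floor; 95% of the signals of bacterial control probe sets lie under it, and the highest of them was 5.96. A fold is given as "at least" where all 3 arrays of the dimmer line lay under the floor. A probe set or gene was called when its limma adjusted p was under 0.05 and its difference at least 2-fold. Array medians lay between 6.28 and 6.34, and arrays of 1 line correlated at 0.990 to 0.996. The targeted gene Gprc5a gave 8.32 to 8.74 in wild-type cells, 7.09 to 7.20 in knockout cells and 6.96 to 7.09 in tumour cells; its signal was lower without the intact gene but above the floor, and the labels do not place its probes in or out of the deleted part. Of the epithelial markers, 7 were measured, and all lay above the floor on every array of the wild-type and tumour lines. In the knockout line this held for 6, and Krt19 averaged 5.32, with -4.90 ± 0.13 for knockout minus wild-type. Levels shifted within the list: tumour minus wild-type was 6.70 ± 0.11 for Cldn7, 6.05 ± 0.13 for Krt18, 2.31 ± 0.10 for Krt8, 1.83 ± 0.13 for Krt19 and -1.03 ± 0.12 for Esrp1, all called, and Krt18 (2.55 ± 0.13) and Cldn7 (2.12 ± 0.11) were also higher in knockout than in wild-type cells. The part of these shifts in the results for Peg3 and Plagl1 was not tested. The 8 airway basal markers lay above the floor on every wild-type and knockout array, whereas in tumour cells Krt17, Trp63 and Col17a1 lay under it on all 3 arrays.

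With each gene represented by its brightest probe set, the members called were all lower. In the knockout line 2 of 9 members, Peg3 and Cdkn1c, were lower than in wild-type cells and 0 were higher. Over all genes 2.98% were called lower and 1.9% higher, or 4.88% in either direction. In the tumour line 1 member, Plagl1, was lower than in knockout cells and 0 were higher, where 6.38% of all genes were lower and 7.79% higher (14.2% either way). Against the wild-type line 3 members, Peg3, Dlk1 and Plagl1, were lower in tumour cells and 0 were higher, where 8.46% of all genes were lower and 8.09% higher (16.6% either way). At an unadjusted limma p under 0.05 the members that were higher numbered 1, 1 and 0 in the same order. For tumour against knockout, 1 of 9 is a share near that of all genes. The absence of a higher member rests on the brightest-probe-set rule and on the 2-fold threshold. With the mean of its probe sets Ndn was called higher in knockout than in wild-type cells (1.46, limma adjusted p = 1.79e-08). It was then lower in tumour than in knockout cells (-1.35). Without cross-hybridising probe sets these differences were 3.05 (adjusted p = 6.78e-09) and -3.04. With brightest probe sets and a 1.5-fold threshold, Cdkn1c was called higher in tumour than in knockout cells (0.65, adjusted p = 0.000434). With no fold threshold Ndn was also called higher in knockout than in wild-type cells (0.39, adjusted p = 0.0316). The median log2 difference of the 9 members was -0.29 for knockout minus wild-type, -0.11 for tumour minus knockout and -0.37 for tumour minus wild-type, beside -0.0042, 2.73e-05 and 0.01 over all genes. The last comparison shares its arrays with the other two.

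Probe set by probe set, 12 of the 36 were called in at least 1 comparison, and they belong to Peg3, Plagl1, Ndn, Dlk1 and Cdkn1c. The share of all probe sets called in at least 1 comparison was not computed, so the 12 only describe the members. In the knockout line 4 probe sets were higher and 4 lower than in wild-type cells, against 1.61% and 2.11% of all 45037 probe sets that are not controls. The 4 that were higher all read Ndn. Between tumour and knockout line 7 member probe sets were lower (5.18% of all probe sets), and between tumour and wild-type line 7 were lower (6.42%). The other 24 probe sets were called in no comparison, with log2 differences between -0.47 and 0.39, and 7 member probe sets lay under the floor on all 9 arrays. Single probe sets of 1 gene share their target and are not replicates. The largest differences were losses of Peg3 and Plagl1 signal and a gain at 4 of 8 Ndn probe sets.

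**Figure D1:**
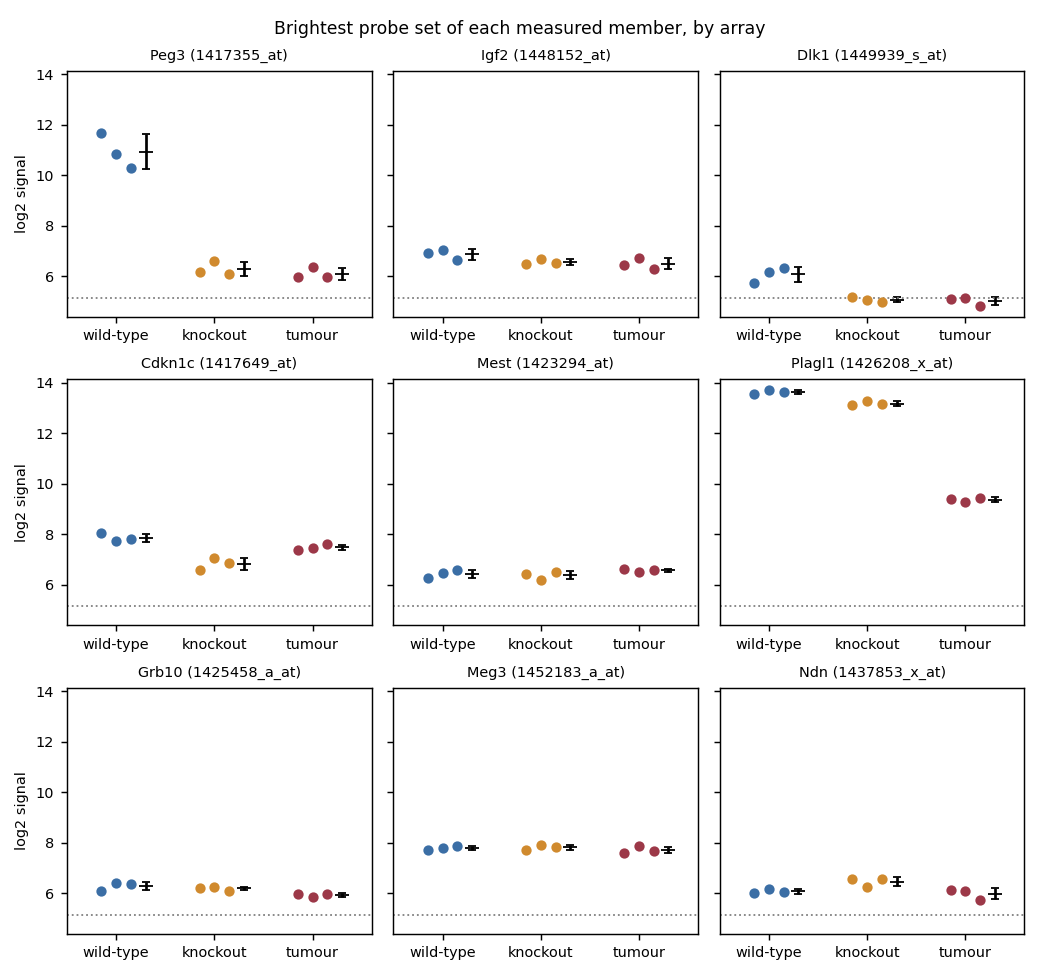
Log2 signal of each member's brightest probe set (one panel per gene) on each of the 9 arrays, grouped by line, with the mean and SD of 3 arrays as a bar and the floor of 5.15 as a dotted line. Peg3 stands near 11 in wild-type cells alone, and Plagl1 drops to about 9.4 in tumour cells alone. Line means of Igf2, Mest, Grb10 and Meg3 differ by less than 2-fold, with the Grb10 tumour arrays lowest by a small margin.

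Peg3 encodes a zinc finger protein expressed from the father's copy that takes part in growth, maternal behaviour and cell death pathways. It was high in wild-type cells. In both lines without Gprc5a 2 of its 3 responding probe sets were at or near background, and the brightest stayed above the floor. Its promoter window is shown because no other member fell this far. The window is the 250 bases before the annotated start on the minus strand of chr7:6730420-6730669 (RefSeq, GRCm38.p6), with CG pairs, the sites of DNA methylation, in capitals.
Peg3: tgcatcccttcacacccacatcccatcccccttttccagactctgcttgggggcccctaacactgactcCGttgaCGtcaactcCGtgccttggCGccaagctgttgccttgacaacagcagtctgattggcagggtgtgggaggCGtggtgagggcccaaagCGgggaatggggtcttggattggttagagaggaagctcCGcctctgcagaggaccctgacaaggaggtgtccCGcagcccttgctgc
It holds 8 CG pairs, a number reached by 43% of all 32851 mouse promoter windows of this length. The letters GGGGCCCC, the core of the motif of Plagl1, which read the same on both strands, occur once in it and in 0.889% of all windows. Methylation and factor binding were not measured here.

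Probe set 1433924_at read Peg3 at 12.05, 12.06 and 12.07 on the wild-type arrays, at 5.26, 5.12 and 5.27 on the knockout arrays and at 4.67, 4.82 and 4.64 on the tumour arrays. The wild-type arrays stood far above the rest, and the groups did not overlap. Knockout minus wild-type was -6.84 ± 0.09 (SE, n = 3 arrays per line; adjusted p = 2.58e-12), a 115-fold ratio of signals whose lower term is near background, or at least 68.5-fold against the highest control signal. Tumour minus wild-type was -7.35 ± 0.09 (adjusted p = 1.8e-13), at least 120-fold. Tumour and knockout lines differed by -0.51 ± 0.09 (adjusted p = 0.000516), which is less than 2-fold and lies at background. The order was thus wild-type first, and the other two near the floor.

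The brightest Peg3 probe set, 1417355_at, gave 11.69, 10.86 and 10.28 in wild-type cells, 6.19, 6.61 and 6.11 in knockout cells and 5.96, 6.36 and 5.96 in tumour cells. Here the knockout and tumour arrays overlapped (-0.21, adjusted p = 0.638), and the wild-type arrays stood apart from both. Knockout minus wild-type was -4.64 ± 0.28 (24.9-fold, adjusted p = 3.41e-07) and tumour minus wild-type -4.84 ± 0.28 (28.7-fold, adjusted p = 5.05e-08). Probe set 1417356_at gave 10.37, 9.70 and 9.69 in wild-type cells and between 4.92 and 5.31 on the other 6 arrays. Its differences from wild-type were -4.73 ± 0.16 in knockout cells (adjusted p = 3.68e-09) and -4.85 ± 0.16 in tumour cells (adjusted p = 4.73e-10). The remaining 2 probe sets, 1447731_at and 1447732_x_at, lay under the floor on all 9 arrays and give no fold. The wild-type spread of 1417355_at went with RNA quality as read by the 3' minus 5' difference of the beta-actin control probe sets, which was 0.75, 1.09 and 1.78 on the same 3 arrays, larger where Peg3 was lower; its part in the result was not tested, and 1433924_at did not spread on those arrays.

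**Figure D2:**
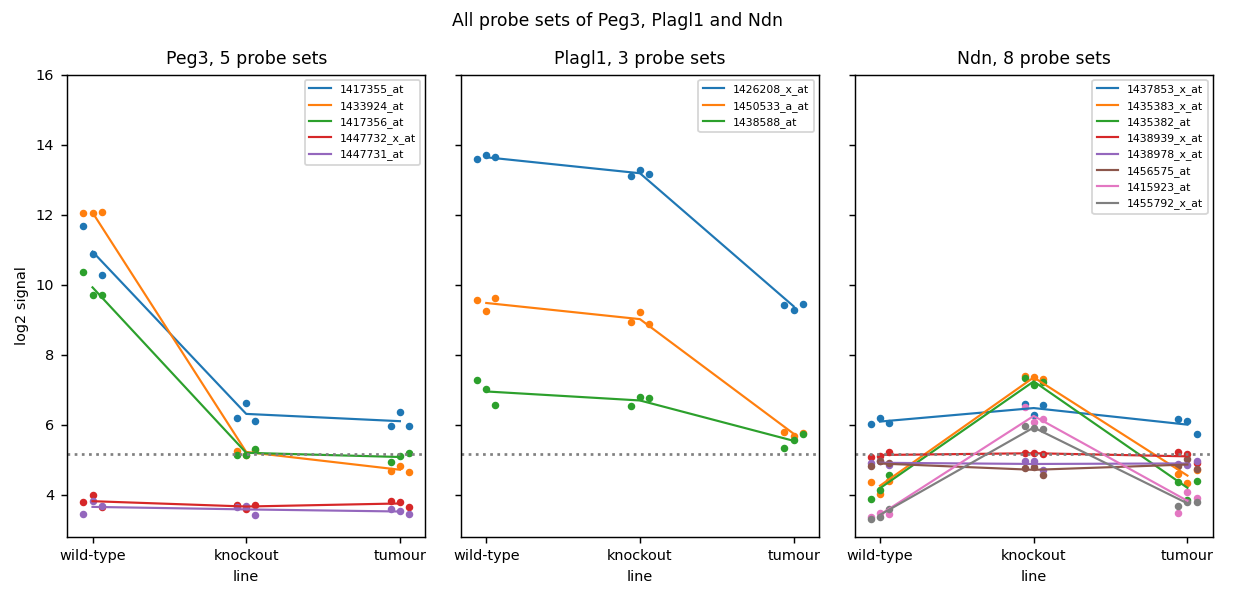
Log2 signal of every probe set of Peg3, Plagl1 and Ndn on each array, by line; points are single arrays, coloured lines join the means of 3 arrays, and the dotted line is the floor of 5.15. In the Peg3 panel 3 probe sets separate the wild-type line from the others and 2 lie on the bottom, while 4 of 8 Ndn probe sets rise in knockout cells only.

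Plagl1 encodes a zinc finger transcription factor expressed from the father's copy, known for halting the cell cycle and for acting on other imprinted genes. It was lower in tumour cells by all 3 of its probe sets, while the wild-type and knockout lines stayed within 2-fold of each other. Its promoter window, plus strand of chr10:13090582-13090831, is shown in the same way for comparison with that of Peg3.
Plagl1: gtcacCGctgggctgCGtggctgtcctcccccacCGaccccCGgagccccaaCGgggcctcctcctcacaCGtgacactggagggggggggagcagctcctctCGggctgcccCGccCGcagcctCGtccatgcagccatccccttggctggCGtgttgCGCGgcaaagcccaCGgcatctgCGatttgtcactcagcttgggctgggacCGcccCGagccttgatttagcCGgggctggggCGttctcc
It holds 19 CG pairs, a number that 19.7% of all windows reach, and 70.4% of its bases are G or C.

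The brightest probe set, 1426208_x_at, gave 13.58, 13.70 and 13.63 in wild-type cells, 13.10, 13.28 and 13.16 in knockout cells and 9.42, 9.27 and 9.44 in tumour cells. No lines overlapped. Tumour minus knockout was -3.80 ± 0.09 (adjusted p = 2.8e-11) and tumour minus wild-type -4.26 ± 0.09 (19.2-fold, adjusted p = 7.91e-12). Knockout minus wild-type was -0.46 ± 0.09 (adjusted p = 0.00351), too small to be called. The suffix of this probe set marks probes that can bind other transcripts. The 1450533_a_at probe set, without that suffix, gave a tumour minus knockout difference of -3.28 ± 0.12 (9.68-fold, adjusted p = 1.14e-09) and a tumour minus wild-type difference of -3.74 ± 0.12 (13.3-fold, adjusted p = 3e-10). Its knockout minus wild-type difference was again -0.46. The dimmer 1438588_at gave -1.15 ± 0.17 (adjusted p = 0.000156) and -1.41 ± 0.17 (adjusted p = 2.62e-05) for tumour minus knockout and tumour minus wild-type, with tumour arrays at 5.32, 5.54 and 5.74. Of the 8 airway basal markers, 6 were called lower in tumour cells than in both other lines, and 2 were not called. Over all genes 6.38% were called lower against knockout and 8.46% against wild-type cells. Trp63, among the 6 basal markers, was also called lower in knockout than in wild-type cells (-1.36), where Plagl1 was not. The log2 of the summed signal of all 8 basal markers, to which the brightest contribute most, was 16.25 to 16.38 in wild-type cells, 16.29 to 16.31 in knockout cells and 11.41 to 11.59 in tumour cells. Their part in the result was not tested, and fewer cells of a type and less RNA per cell cannot be told apart in such bulk samples.

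Ndn encodes necdin, a MAGE family protein of postmitotic neurons that restrains growth and is expressed from the father's copy. It was the only member with probe sets higher in knockout cells, and these were back at background in tumour cells. Its promoter window, plus strand of chr7:62348027-62348276, is shown because this member moved against Peg3 although both lie on the same chromosome.
Ndn: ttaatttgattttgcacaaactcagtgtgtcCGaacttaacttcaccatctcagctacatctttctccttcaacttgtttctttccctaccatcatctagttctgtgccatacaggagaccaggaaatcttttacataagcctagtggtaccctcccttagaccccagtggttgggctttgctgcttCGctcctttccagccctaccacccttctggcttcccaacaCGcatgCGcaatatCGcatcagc
It holds 5 CG pairs, a number that 55.6% of all windows reach, and 47.2% of its bases are G or C. Neither the Ndn nor the Plagl1 window holds GGGGCCCC. CCATNTT, the core of the motif of YY1, and TATAAA were also searched on both strands and are each in 12.4% of all windows; no match to either was found in the 3 windows shown.

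Probe set 1435383_x_at read Ndn at 4.37, 4.01 and 4.37 in wild-type cells, 7.38, 7.36 and 7.30 in knockout cells and 4.59, 4.32 and 4.71 in tumour cells. The knockout arrays stood above the floor and the other 6 under it. The difference was 3.10 ± 0.12 for knockout minus wild-type (adjusted p = 1.26e-08) and -2.81 ± 0.12 for tumour minus knockout (adjusted p = 5.98e-09), at least 4.59-fold in both. Probe set 1435382_at gave 3.87, 4.12 and 4.56, then 7.33, 7.14 and 7.23, then 4.36, 3.84 and 4.38 in the same order of lines, with differences of 3.05 ± 0.18 (adjusted p = 2.39e-07) and -3.04 ± 0.18 (adjusted p = 6.41e-08), at least 4.24-fold. It showed the same step as the first. Probe sets 1415923_at (2.82 ± 0.15 and -2.43 ± 0.15, at least 2.14-fold) and 1455792_x_at (2.50 ± 0.09 and -2.17 ± 0.09, at least 1.70-fold) did likewise. Tumour and wild-type lines differed by 0.01 to 0.39 for these 4 probe sets, and none was called.

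The other 4 Ndn probe sets were called in no comparison. The brightest, 1437853_x_at, gave 6.01, 6.19 and 6.05 in wild-type cells, 6.58, 6.26 and 6.57 in knockout cells and 6.15, 6.11 and 5.73 in tumour cells. Its differences were 0.39 ± 0.13 (adjusted p = 0.0629) and -0.47 (adjusted p = 0.012). The remaining 3, 1438939_x_at, 1438978_x_at and 1456575_at, stayed between 4.56 and 5.22. Because the gene-level rule takes the brightest probe set, it does not count Ndn among the called members. Among markers of other cell types, Twist1, a transcription factor of mesenchyme, moved with Ndn, at 4.37, 4.39 and 4.07 in wild-type cells, 6.15, 6.83 and 6.61 in knockout cells and 4.25, 4.24 and 4.23 in tumour cells. It was the single called gene of 11 measured fibroblast and mesenchyme markers. The log2 of their summed signal was 9.31 to 9.46, 9.44 to 9.56 and 9.33 to 9.39 in wild-type, knockout and tumour cells, in that order, and Col3a1 lay under the floor in each line. The part of such cells in the Ndn result was not tested.

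Cdkn1c encodes p57, an inhibitor of cyclin-dependent kinases expressed from the mother's copy. Its only probe set, 1417649_at, gave 8.05, 7.76 and 7.80 in wild-type cells, 6.59, 7.05 and 6.88 in knockout cells and 7.40, 7.46 and 7.60 in tumour cells. No groups overlapped, and the knockout line was lowest. Knockout minus wild-type was -1.03 ± 0.13 (2.04-fold, adjusted p = 0.000125), which sits at the 2-fold threshold and was -0.94 without the first wild-type array and -0.90 without the first knockout array, no longer called. The tumour line lay 0.65 ± 0.13 above the knockout line (adjusted p = 0.00153) and 0.38 below the wild-type line (-0.38 ± 0.13, adjusted p = 0.033), both under 2-fold.

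Dlk1 encodes a transmembrane protein of the Notch ligand family that keeps precursor cells undifferentiated. Its probe set 1449939_s_at gave 5.76, 6.18 and 6.32 in wild-type cells, 5.19, 5.07 and 5.0 in knockout cells and 5.09, 5.14 and 4.85 in tumour cells. The wild-type arrays stood above the others by about 2-fold and were themselves close to the control signals. Tumour minus wild-type was -1.06 ± 0.14 (adjusted p = 6.19e-05), at least 1.91-fold, and was called. Without the third wild-type array it was -0.94 and without the third tumour array -0.97, under 2-fold. Knockout minus wild-type was -1.0 ± 0.14 (adjusted p = 0.000327), just short of 2-fold; it was called after quantile normalization (-1.02), after centring each array on its median (-1.01), without the first wild-type array (-1.16) and without the first knockout array (-1.05). The second Dlk1 probe set, 1442724_at, stayed between 4.74 and 5.16 and was not called.

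Igf2, the fetal insulin-like growth factor, was not called by either of its 2 probe sets in any comparison; at an unadjusted limma p under 0.05 the count was 0, 1 and 1. The brighter, 1448152_at, gave 6.93, 7.05 and 6.63 in wild-type cells, 6.50, 6.71 and 6.53 in knockout cells and 6.46, 6.74 and 6.30 in tumour cells. Wild-type arrays tended to the top of a range that the lines shared, and the largest difference, tumour minus wild-type, was -0.37 (adjusted p = 0.05). The dimmer, 1415931_at, lay between 5.19 and 5.93, with -0.38 ± 0.13 for tumour minus knockout (adjusted p = 0.0334). Grb10 encodes an adaptor that binds the insulin and IGF1 receptors and dampens their signal. Its probe set 1425458_a_at gave 6.11, 6.40 and 6.37, then 6.23, 6.25 and 6.11, then 5.99, 5.85 and 5.97 in wild-type, knockout and tumour cells, in that order. The tumour arrays were lowest by a small margin, -0.36 ± 0.10 against wild-type (adjusted p = 0.0135) and -0.26 ± 0.10 against knockout (adjusted p = 0.0641). Its 2 dimmer probe sets lay at 4.89 to 5.39 (1430164_a_at) and 4.18 to 4.55 (1425457_a_at).

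Mest encodes an enzyme of the alpha/beta hydrolase fold. Probe set 1423294_at gave 6.27, 6.47 and 6.60 in wild-type cells, 6.44, 6.20 and 6.51 in knockout cells and 6.63, 6.49 and 6.60 in tumour cells, with overlapping lines and differences of -0.06, 0.19 and 0.13. Meg3 is a long non-coding RNA expressed from the mother's copy of the same domain as Dlk1. It has 11 probe sets, of which 9 lay above the floor on all arrays and 2 under it on all arrays, and 0 of the 11 were called in any comparison (1, 2 and 1 at an unadjusted limma p under 0.05). The brightest, 1452183_a_at, gave 7.72, 7.79 and 7.88 in wild-type cells, 7.73, 7.92 and 7.86 in knockout cells and 7.62, 7.87 and 7.67 in tumour cells. For this probe set the lines overlapped. The ranges over 9 arrays were 6.89 to 7.28 for 1452906_at, 6.65 to 7.30 for 1439380_x_at, 6.69 to 7.11 for 1426758_s_at, 6.69 to 6.95 for 1429257_at and 6.52 to 6.84 for 1429256_at. The dimmer ones gave 6.16 to 6.39 for 1436057_at, 5.71 to 6.06 for 1428764_at and 5.15 to 5.48 for 1452905_at, and 1428765_at and 1436713_s_at are the 2 under the floor. The largest Meg3 difference was -0.47 ± 0.09 for tumour minus knockout at 1439380_x_at (adjusted p = 0.00156). Signals of Igf2, Grb10 and Mest lie near the array medians, and a level signal there cannot be given to transcript or background.

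**Figure D3:**
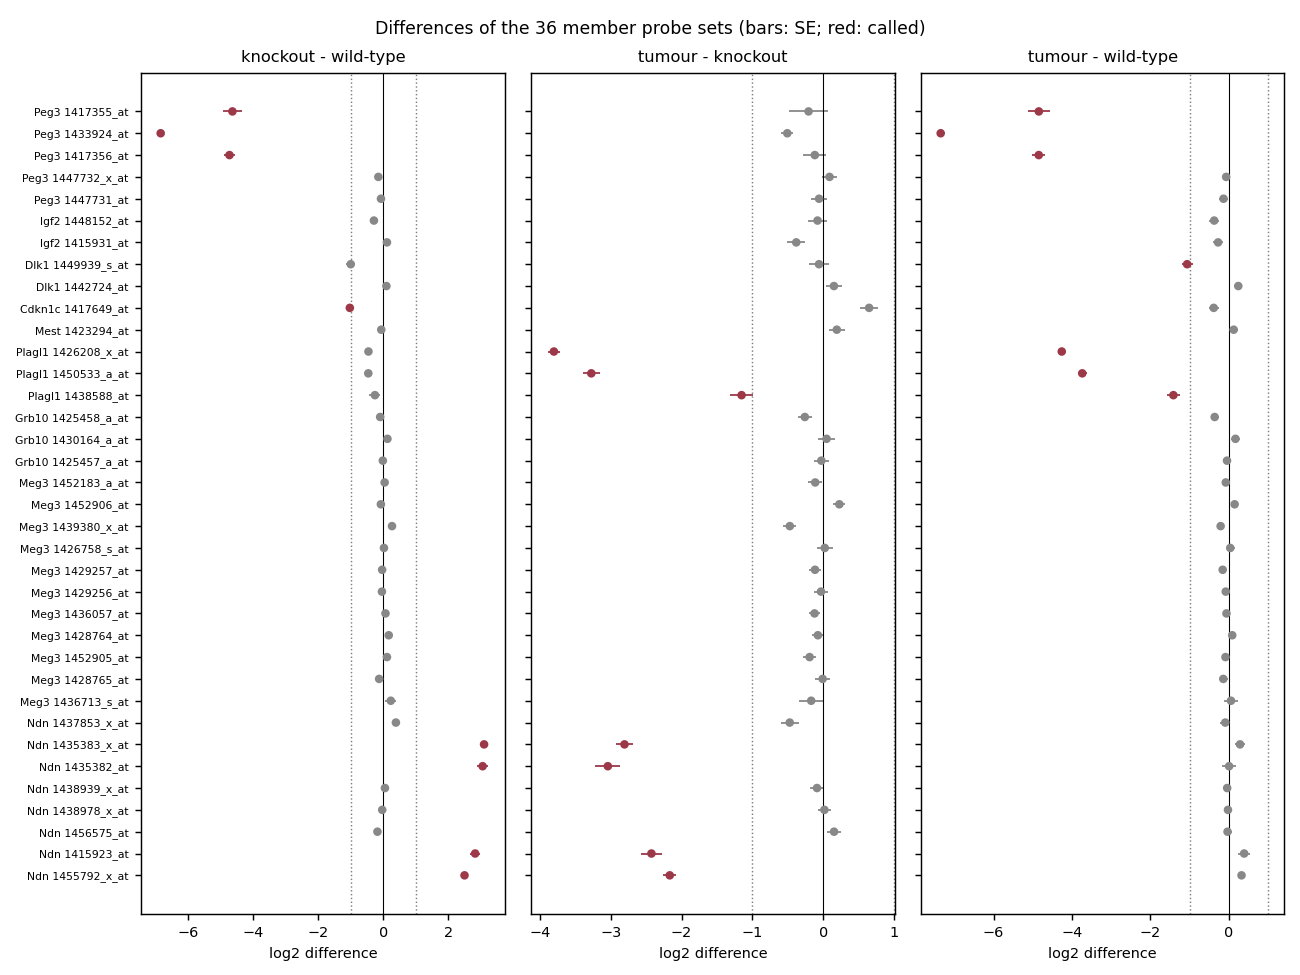
Log2 difference of each of the 36 member probe sets in the 3 comparisons, with limma's SE as bars, called probe sets in red and 2-fold as dotted lines. Losses of Peg3 and Plagl1 probe sets reach -7.35 and -4.26, 4 Ndn probe sets gain between 2.50 and 3.10 in knockout cells, and the 24 probe sets in grey throughout lie between -0.47 and 0.39.

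Imprinted genes lie in clusters, so the 3 nearest measured genes on either side of each member were read from the gene order of GRCm38.p6. Of the 6 around Peg3 (Smim17, Zim2, Zim1, Usp29, Zim3 and Aurkc), 0 were called in any comparison by limma (1, 0 and 1 at an unadjusted p under 0.05), and their differences lay between -0.26 and 0.19. Usp29, which shares a promoter region with Peg3 and is likewise expressed from the father's copy, gave -0.25 ± 0.09 for knockout minus wild-type and -0.26 ± 0.09 for tumour minus wild-type. Of these 6, Smim17 and Zim1 lay under the floor on all 9 arrays and could not show a fall. Zim2, Usp29 and Aurkc stayed under the highest control signal of 5.96, and only Zim3, at 6.71 to 7.05, lay above it. Zim3 had a level like that of Igf2, where a level signal cannot be given to transcript or background. The neighbours thus say little on whether transcription around Peg3 changed. Around Ndn the imprinted genes Magel2, Mkrn3 and Peg12 and 3 others were not called, nor did any reach an unadjusted p under 0.05. This says little, since 5 of the 6 lay under the floor on all 9 arrays and Magel2, at 5.59 to 5.83, under the highest control signal. Around Plagl1, Stx11 and Phactr2 were lower in tumour cells (-1.61 ± 0.10 and -2.52 ± 0.11 against knockout, -2.11 ± 0.10 and -2.34 ± 0.11 against wild-type), while Utrn, Sf3b5, Zc2hc1b and Ltv1 were not called. Around Cdkn1c, Phlda2 and Kcnq1 were higher in tumour cells. Slc22a18 and Nap1l4, both listed here as expressed from the mother's copy, gave -0.38 and -0.57 ± 0.11 for knockout minus wild-type, not called. Around Dlk1 and Meg3, Wars, a tRNA synthetase gene, was higher in tumour than in knockout cells (1.42 ± 0.10), and around Grb10, Fignl1 was higher (1.86) and Cobl was lower in tumour than in wild-type cells (-1.79 ± 0.09). The differences of the 5 measured genes around Igf2 lay between -0.44 and 0.24 and those around Mest between -0.33 and 0.63. H19, the gene next to Igf2, is not among the 5, since it has no probe set of its own. Probe set 1448194_a_at, shared by H19 and Mir675, was far lower in knockout and tumour cells than in wild-type cells. Its values stand under the other observations at the end.

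**Figure D4:**
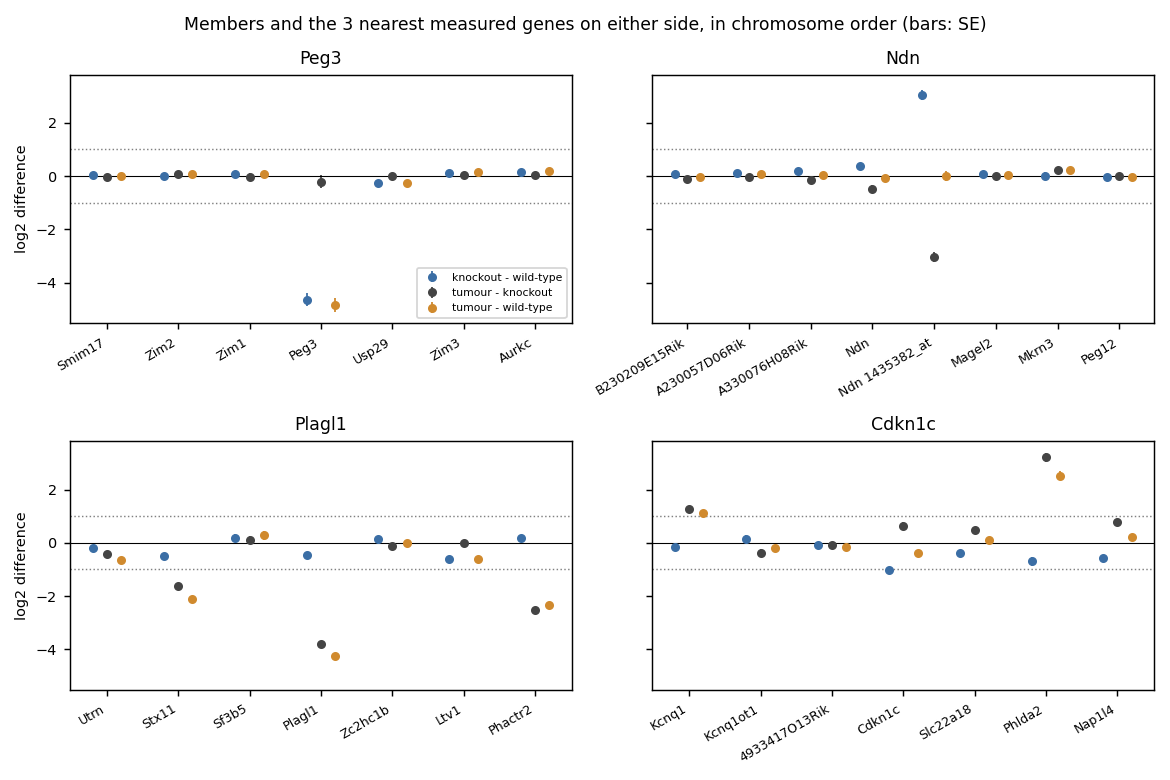
Log2 differences, with SE bars, of Peg3, Ndn, Plagl1 and Cdkn1c and of the 3 nearest measured genes on either side in chromosome order, with 2-fold as dotted lines; Ndn is drawn by its brightest probe set and again by 1435382_at. Peg3 stands at -4.64 and -4.84 among neighbours near 0, most of them at background signals, whereas Phlda2 beside Cdkn1c reaches 3.22.

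Of 44 imprinted genes listed outside the 10, 38 were measured. Between knockout and wild-type cells 0 were higher and 2 lower, where 1.9% and 2.98% of all genes were. Between tumour and knockout cells 4 were higher and 0 lower (7.79% and 6.38% of all genes). Between tumour and wild-type cells 4 were higher and 4 lower (8.09% and 8.46% of all genes). The median differences of the 38 were 0.01, -0.03 and -0.0014. Of those expressed from the father's copy (17 measured), Sgce, an epsilon-sarcoglycan gene, gave 7.31, 7.33 and 7.49 in wild-type cells, 5.92, 6.19 and 6.66 in knockout cells and 5.97, 6.39 and 5.96 in tumour cells. Like Peg3 it was highest in wild-type cells, with -1.12 ± 0.16 for knockout minus wild-type and -1.27 ± 0.16 for tumour minus wild-type, and the first was not called without the first knockout array (-0.95). Impact, a regulator of translation, was higher in tumour cells than in the knockout (2.36 ± 0.11) and wild-type lines (1.91 ± 0.11), as was the non-coding Airn (1.24 ± 0.13 and 1.74 ± 0.13). Inpp5f, an inositol phosphatase gene, was lower in tumour cells than in wild-type cells (-1.16 ± 0.10). The calls of Sgce (-0.63 and -0.79), Impact (0.99 and 0.84) and Airn (0.65 and 0.85) were lost when all probe sets of a gene were averaged.

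Of those expressed from the mother's copy (21 measured), Phlda2, which restrains placental growth, gave 6.87, 6.89 and 7.0 in wild-type cells, 6.04, 5.95 and 6.66 in knockout cells and 9.24, 9.76 and 9.32 in tumour cells. The tumour arrays were far above both (3.22 ± 0.17 and 2.52 ± 0.17). Kcnq1, a potassium channel gene, was higher by 1.28 ± 0.11 and 1.13 ± 0.11. Ascl2, a transcription factor of trophoblast and intestinal stem cells, was lower in the knockout (-1.15 ± 0.10) and tumour lines (-1.19 ± 0.10) than in wild-type cells. Cobl, an actin nucleator gene, was lower in tumour than in wild-type cells (-1.79 ± 0.09), a call lost with averaged probe sets (-0.85). Each parental class, as listed, gave the same counts of calls. These were 0 higher and 1 lower for knockout against wild-type, and 2 higher and 0 lower for tumour against knockout. For tumour against wild-type they were 2 higher and 2 lower. With no fold threshold, knockout against wild-type gave 3 higher and 3 lower for the father's copy and 1 higher and 7 lower for the mother's. Over all genes it gave 1861 higher and 2944 lower. Parental expression was not measured in these lines.

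**Figure D5:**
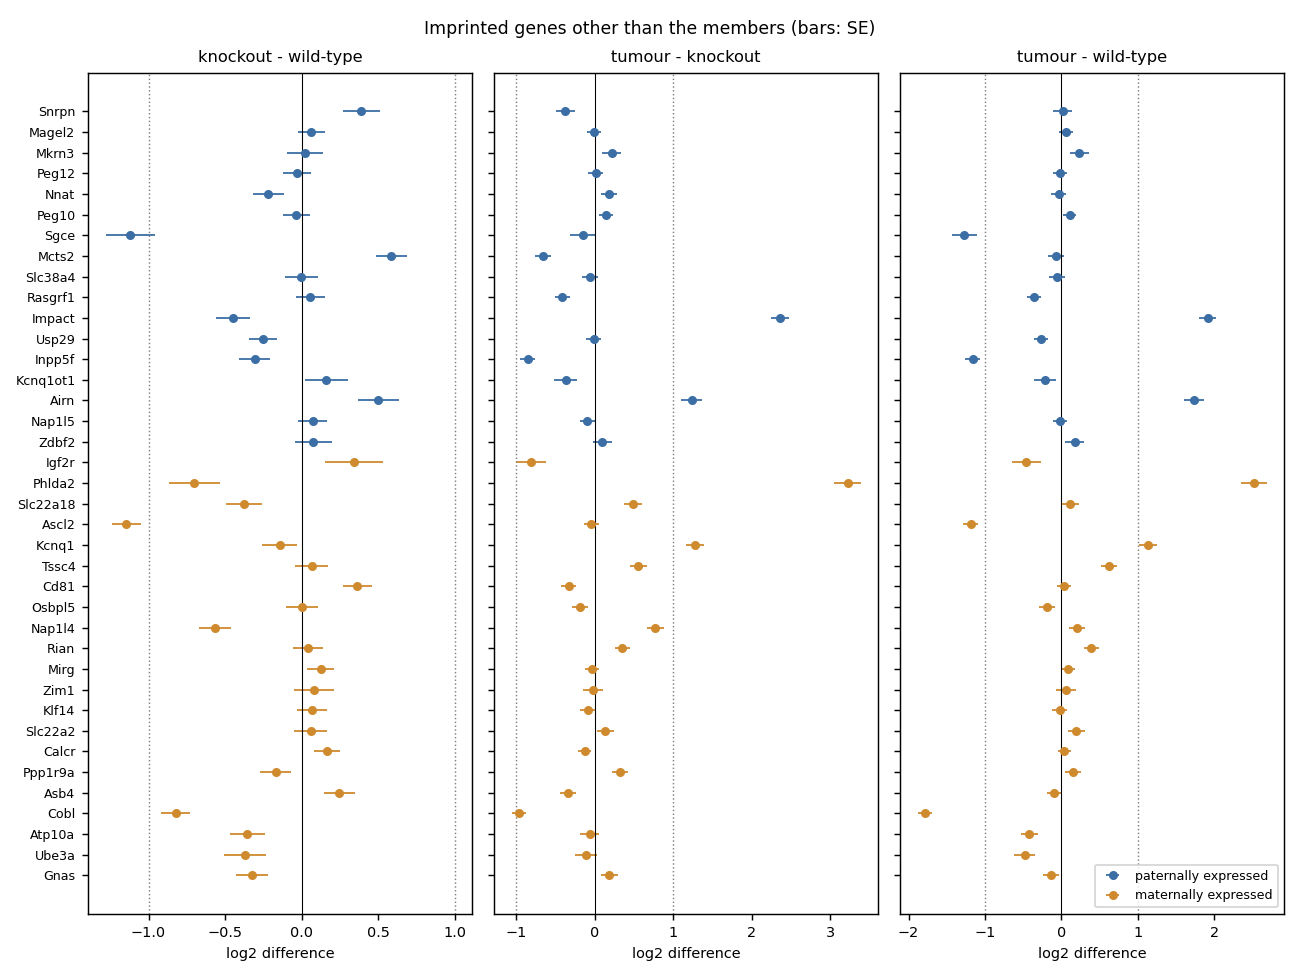
Log2 differences of the 38 other imprinted genes measured, by comparison and by the parental copy they are expressed from, with 2-fold as dotted lines. Most points lie inside the lines, with Phlda2 at 3.22 and Impact at 2.36 above them in the tumour comparisons.

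Genes that act with the members were read from lists. Of 8 measured genes for the IGF ligand, its receptors, adaptors and mRNA-binding proteins, 0 were called between knockout and wild-type lines (1 at an unadjusted limma p under 0.05), where 4.88% of all genes were called. Insr, the insulin receptor, was lower in tumour cells (-1.74 ± 0.11 against knockout and -1.76 ± 0.11 against wild-type). Igf1r, the receptor that carries the growth signal of Igf2, gave -0.81 and -0.96, and Igf2r, which removes Igf2, gave -0.81 and -0.46, all under 2-fold. Averaged over its probe sets Insr fell by 0.63 and 0.66 on the log2 scale, under the 2-fold threshold. The list medians were -0.01, -0.44 and -0.27 for knockout minus wild-type, tumour minus knockout and tumour minus wild-type. Of 17 measured factors that set or maintain imprints, 0 were called between knockout and wild-type lines (6 at an unadjusted limma p under 0.05, all lower), where 4.88% of all genes were called. In the tumour line 5 were higher and 2 lower than in knockout cells, where 7.79% and 6.38% of all genes were. Against wild-type cells 4 were higher and 2 lower, where 8.09% and 8.46% of all genes were. Uhrf1, which brings Dnmt1 to newly copied DNA, was higher by 2.94 ± 0.16 and 2.18 ± 0.16, and the helicase gene Hells by 2.04 ± 0.11 and 2.05 ± 0.11. The Polycomb methyltransferase gene Ezh2 was higher by 2.08 ± 0.10 against the knockout line. The de novo methyltransferase gene Dnmt3a differed by -2.47 ± 0.12 and -3.0 ± 0.12, and the demethylase gene Tet2 by -2.25 ± 0.20 from the wild-type line. The list medians were -0.07, 0.19 and 0.03, and the tumour minus knockout calls of Hells (0.97) and Dnmt3a (-0.94) were lost with averaged probe sets.

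Of 8 relatives of the members that are not imprinted, Cdkn1a, which encodes the kinase inhibitor p21, was higher in knockout than in wild-type cells (1.49 ± 0.10), where Cdkn1c was lower. Plagl2, a close relative of Plagl1, was lower in knockout cells than in wild-type cells (-1.03 ± 0.11) and higher in tumour than in knockout cells (1.44 ± 0.11). Dlk2, the relative of Dlk1, was lower in tumour cells (-1.87 ± 0.10 against knockout and -2.15 ± 0.10 against wild-type). The adaptor gene Grb7 was higher in tumour than in knockout cells (1.04 ± 0.10), and Plag1 was lower in tumour than in wild-type cells (-1.32 ± 0.14), with all but 1 wild-type array under the floor. Several relatives thus moved, each with its own pattern. The Plagl2 fall and the Grb7 rise were under 2-fold after quantile normalization (-1.0 and 0.97). So were the Plagl2 fall without the second wild-type (-0.99) or second knockout array (-0.96) and the Grb7 rise without the first tumour array (0.96). With averaged probe sets Plagl2 (-0.61 and 0.70) and Plag1 (-0.72) were not called. The list medians were -0.25, -0.27 and 0.02.

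For members called at gene level, the 3 genes with the most similar profile were found by Euclidean distance over the 9 arrays between profiles centred on their own mean. Nearest to Peg3 were Krt1 (distance 0.95), Hrnr (1.11) and Lce3a (1.24), all known from the cornified epidermis. Krt1 gave 10.43 ± 0.31 (mean ± SD, n = 3) in wild-type cells, 6.25 ± 0.04 in knockout cells and 6.02 ± 0.13 in tumour cells. Nearest to Plagl1 were Socs2 (0.45), Cdkn2b (0.48) and Plcd1 (0.53). Cdkn2b, which encodes the kinase inhibitor p15, gave 10.32 ± 0.08 in wild-type cells, 9.59 ± 0.20 in knockout cells and 5.85 ± 0.26 in tumour cells. Nearest to Cdkn1c were Epb41l1 (0.44), Tmem45b (0.46) and Pdcd7 (0.47), and nearest to Dlk1 were B4galnt4 (0.35), Slc16a10 (0.47) and Sptlc3 (0.47). With 3 lines, such a ranking describes a pattern of 3 levels.

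Of the muscle markers, Acta2 was highest in wild-type cells, as Peg3 and Dlk1 were, at 11.40, 11.18 and 11.15, then 9.87, 9.82 and 9.83 in knockout cells and 8.08, 8.38 and 8.23 in tumour cells. It was the only one of 7 called, and the log2 of their summed signal was 11.40 to 11.61, 10.39 to 10.40 and 9.39 to 9.61. Of 7 measured neuroendocrine and neuronal markers, Tubb3 was lower in the knockout and tumour lines than in wild-type cells, and Resp18 and Snap25 lay under the floor in each line. Their part in the losses of Peg3 and Dlk1 was not tested.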

How the data were processed

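Per the labels, DNase-treated total RNA from silica columns was checked on a chip for its ribosomal bands and labelled with biotin as cRNA. The authors deposited log2 signals for 45101 probe sets on 9 arrays; how these were normalized and summarized is not given in the sources used here. Probe sets were named from the platform's annotation: 34945 carried 1 symbol, 932 several and 9160 none, and 64 were controls. One limma 3.58.1 model (lmFit and eBayes, R 4.3.3, 6 residual degrees of freedom, two-sided, Benjamini-Hochberg) was fitted to 18193 genes, each by its brightest single-symbol probe set, and another to all 45037 probe sets without controls. Values of single member probe sets come from the latter, counts of members, lists, neighbours and likeness from the former. The fits were checked on simulated data. The number of arrays limits the precision.

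All members and their probe sets are named; of each list, up to 4 called genes per comparison with the largest difference; other genes of the lists were picked for their role. The members, lists, floor and comparisons were chosen with earlier results of these data known. Listed genes without a single-symbol probe set, such as Snurf, Zrsr1, Peg13, Rtl1, Dio3, Slc22a3, Igf2bp2 and Ctcfl, are not analysed here. Promoter windows, found for 8 of 10 members, come from RefSeq. The alternatives were quantile normalization, centring, a filter on the dimmest 40%, averaged probe sets per gene, no cross-hybridising ones (suffix _x_at or _s_at), every probe set alone, no or a 1.5-fold threshold, a trended variance, only the groups compared, the replicate block, and each array left out.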

Additional observations from a re-analysis of the deposited data

How the results depend on the processing

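With each array left out in turn, 2 members were called between knockout and wild-type lines in every fit, though not the same 2 (without the first wild-type or first knockout array Cdkn1c, at -0.94 and -0.90, gave way to Dlk1, at -1.16 and -1.05), and 1 between tumour and knockout lines, and 2 to 3 between tumour and wild-type lines; all genes called ranged from 885 to 904, 2552 to 2637 and 2993 to 3082. Members called between tumour and knockout lines became 2 with averaged probe sets per gene, without cross-hybridising probe sets, with a 1.5-fold threshold and with every probe set on its own. The added member was Cdkn1c, higher in tumour cells, with the 1.5-fold threshold and Ndn, lower in tumour cells, in the other settings. With no fold threshold, 5, 4 and 6 members and 4805, 8103 and 8614 genes were called in the 3 comparisons; with a 1.5-fold threshold 2178, 4881 and 5386 genes; with every probe set on its own 1672, 5119 and 5908 probe sets. These stand beside 888, 2578 and 3012 genes under the settings of the report. The tumour minus wild-type difference of Dlk1 turned to 0.24 (adjusted p = 0.0751) without cross-hybridising probe sets, since its other probe set, near background, then stands for the gene; with the mean of its probe sets it was -0.41. Of 2211 values tested under an alternative, 2119 kept their side of the threshold, 29 lost a call, 62 gained one and 1 reversed. Among the 2119, 27 changed sign where neither value was called. Quantile normalization and centring changed no direction of a called member. With the highest control signal as floor, the bounds were at least 68.5-fold and 15.5-fold for Peg3 (1433924_at, 1417356_at) and 1.09-fold for Dlk1. For Ndn they were 2.62, 2.42 and 1.22-fold (1435383_x_at, 1435382_at, 1415923_at), and 1455792_x_at has no bound there, since its knockout mean lies under that signal. For Plagl1 in tumour cells they were 8.29-fold against knockout and 11.4-fold against wild-type (1450533_a_at), and 1.66-fold and 1.98-fold (1438588_at).

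Replicate numbers are shared between lines in the labels, which do not say that they pair arrays, and they were not taken to do so. Deviations of same-numbered arrays correlated at -0.15 to 0.28. Arrays of different numbers were not compared in this way, so these values cannot decide on pairing. With the replicate block, 2, 1 and 3 members were called, as without it. Dim probe sets limit what can be seen: 7 of 36 lay under the floor on all arrays. With 1 line per group, what separates the lines cannot be assigned to Gprc5a, tumour, organ or culture.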

Other observations

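Probe set 1448194_a_at carries 2 gene symbols in the annotation, those of H19, a listed gene, and of the microRNA gene Mir675, so its signal was given to neither and it belongs to no member. Its log2 signals were 10.47, 10.40 and 10.18 in the wild-type line, 5.10, 5.41 and 5.33 in the knockout line and 5.53, 5.51 and 5.69 in the tumour line. The wild-type arrays stood apart from the rest, which lay near the floor. Knockout minus wild-type was -5.07 ± 0.11 (limma, adjusted p = 1.19e-10) and tumour minus wild-type -4.77 ± 0.11 (adjusted p = 2.14e-11), at least 20.9-fold against the highest control signal in both. Tumour minus knockout was 0.30 ± 0.11 (adjusted p = 0.0574).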
